A study of Mus musculus with 11 samples.

Results

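The secreted Wnt antagonists are extracellular proteins that limit Wnt signalling, and 10 of their genes were taken by symbol from the merged count table: *Sost*, *Dkk1*, *Dkk2*, *Dkk3*, *Wif1*, *Sfrp1*, *Sfrp2*, *Sfrp4*, *Sfrp5* and *Frzb*. All 10 were among the 22600 genes of that table, and all 10 were among the 16496 genes kept by the filter on low counts. RNA-Seq libraries were made from whole distal tibiae of mice aged 24 weeks on a C57BL6/SJL background with free access to food, 1 library per mouse. The Control group (genotype BMAd-WT, n = 4) was compared with the BMAd-DTA group (n = 7), in which diphtheria toxin A is expressed from the ROSA locus after Cre recombination in bone marrow adipocytes (BMAds). By the study's design, all of its mice carried both the *Osterix*-driven FLPo recombinase and the FLPo-dependent *Adipoq*-Cre allele, so the groups differed in the toxin allele. The Cre also acts in a small subset of adiponectin-expressing marrow stromal cells and does not reach every BMAd, which limits BMAd-DTA as a model of pure adipocyte loss. Each value below is in CPM, a gene's counts scaled so that libraries of different depth can be compared. The scale is the total of the library multiplied by its TMM factor, which allows for differences in composition between libraries. The comparison is of these transcripts between bones with their BMAds and bones of a model in which the study found BMAds reduced.

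Canonical Wnt signalling starts when a Wnt ligand brings a Frizzled receptor together with the co-receptors LRP5 or LRP6, which leads to stabilization of β-catenin and to transcription through TCF/LEF factors. Secreted antagonists act at 1 of these contacts. Sclerostin, the product of *Sost*, and the Dickkopf proteins DKK1 and DKK2 occupy LRP5 and LRP6, whereas WIF1 and the Frizzled-related proteins (SFRPs and FRZB) bind Wnt ligands through domains related to parts of their receptors. In bone, the pathway promotes osteoblast formation and activity, and sclerostin is made mainly by osteocytes, the cells embedded in mineralized matrix.

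Sequence upstream of the RefSeq start was available (GRCm38.p6, the same assembly as mm10) for 7 of the 10 genes, namely *Sost*, *Dkk1*, *Dkk2*, *Wif1*, *Sfrp2*, *Sfrp5* and *Frzb*. The windows of *Sost* and *Wif1* are shown because these genes had no overlap between groups, and short stretches of *Dkk1*, *Dkk2* and *Sfrp5* because they held a match outside the annotated gene. The first 250 bases of every RefSeq promoter window were searched on both strands for CTTTGA (the core of TCF/LEF sites), TGTGGT (the core of RUNX sites) and TATAAA (the TATA box), and matches are in capitals. Each sequence is written 5′ to 3′ on the strand of its gene. The RefSeq start is that of the GENCODE gene for *Sost*, *Dkk2*, *Sfrp2* and *Sfrp5*, but lies inside the GENCODE gene by 169 bases for *Dkk1*, 44 bases for *Wif1* and 229 bases for *Frzb*. The *Wif1* window was therefore cut to the 206 bases before the GENCODE gene.
Sost, chr11:101967016-101967265, minus strand: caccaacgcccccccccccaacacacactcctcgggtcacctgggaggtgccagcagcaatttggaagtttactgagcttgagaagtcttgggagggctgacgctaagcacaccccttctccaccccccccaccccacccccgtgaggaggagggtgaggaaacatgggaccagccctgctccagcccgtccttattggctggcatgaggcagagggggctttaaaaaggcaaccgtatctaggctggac
Wif1, chr10:121033754-121033959, plus strand: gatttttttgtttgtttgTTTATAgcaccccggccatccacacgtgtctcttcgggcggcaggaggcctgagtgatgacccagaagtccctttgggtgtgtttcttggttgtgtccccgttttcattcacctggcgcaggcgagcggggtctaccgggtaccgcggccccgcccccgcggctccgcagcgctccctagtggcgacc
Dkk1, chr19:30549686-30549715, minus strand, RUNX core in reverse: ctggacaaggggACCACAgtgcaagggagg
Dkk2, chr3:132085248-132085277, plus strand, TATA box: actgaggaaagcTATAAAaagctaagaggg
Sfrp5, chr19:42202427-42202456, minus strand, RUNX core: caggagagagacTGTGGTggagagagataa

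The TCF/LEF core was found in 2 of the 7 windows (*Dkk1* and *Frzb*) and in 13.8% of all 32851 promoter windows. The RUNX core was found in 2 of the 7 (*Dkk1* and *Sfrp5*) and in 14% of all windows, and the TATA box in 3 of the 7 (*Dkk1*, *Dkk2* and *Wif1*) and in 12.4% of all windows. Counted from the RefSeq start, the TATA box match of *Wif1* lies 232 bases before it, on the opposite strand, and those of *Dkk1* and *Dkk2* lie 54 and 32 bases before it. The TATA box match of *Dkk1*, its TCF/LEF cores 117 and 174 bases before the RefSeq start and the TCF/LEF core of *Frzb* lie within or at the edge of the longer GENCODE genes and are not printed. None of these letters occurred in the windows of *Sost* and *Sfrp2*. A match describes the letters of the window and is not evidence of binding.

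Libraries held 16969529 to 18637663 counts, with medians of 17701061 in Control and 17612195 in BMAd-DTA. Osteoblast and osteocyte markers as sets were present in every library, as the label of bone requires. The osteocyte marker *Fgf23* had 0 counts in BMAd-DTA replicate 5. The summed CPM of 8 osteoblast markers ranged from 2741 to 12769 in Control and from 15033 to 35666 in BMAd-DTA, and 8 of 8 were fitted higher in BMAd-DTA. The lowest of these sums, 2741, was in Control replicate 1, against at least 11178 in the other Control mice. By group mean, *Col1a1* (4720 and 12016 CPM in Control and BMAd-DTA) and *Col1a2* (3869 and 9255 CPM) made up most of the sum. *Alpl*, another of the 8, measured 97.2 CPM in Control replicate 1 and 128, 183 and 157 CPM in the other Control mice. The summed CPM of 6 osteocyte markers ranged from 223 to 324 in Control and from 342 to 605 in BMAd-DTA, with 5 of 6 fitted higher and *Fgf23* lower. The chondrocyte marker sum ranged from 194 to 367 in Control and from 494 to 656 in BMAd-DTA, again without overlap. Most of that sum was *Col2a1*, with a mean of 217 CPM in Control and 468 CPM in BMAd-DTA (log2 difference 1.11). Of the 6 chondrocyte markers tested, 5 were fitted higher, with a median log2 difference of 0.17. The fibroblast and periosteum marker sum ranged from 825 to 1178 in Control and from 1094 to 1595 in BMAd-DTA. The sum of 9 adipocyte markers ranged from 1005 to 1694 in Control and from 391 to 1230 in BMAd-DTA, with 9 of 9 fitted lower, and the sum of 11 skeletal muscle markers ranged from 16.9 to 1300 and from 18.5 to 1025. In whole bone, fewer cells of a type and less RNA per cell cannot be told apart, and the part that these cell contents have in the differences below was not tested.

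Among the LRP5/6-binding antagonists, *Sost* and *Dkk1* were higher in BMAd-DTA bones, while *Dkk2* was near the limit of what these libraries could measure. *Sost*, which encodes sclerostin, lies at chr11:101962458-101967015 on the minus strand. It measured 144, 116, 141 and 97.0 CPM in Control replicates 1 to 4, and 157 CPM in the lowest, 200 CPM in the median and 278 CPM in the highest BMAd-DTA mouse. Every BMAd-DTA mouse was above every Control mouse. The mean was 125 ± 22.3 CPM in Control (SD, n = 4) and 216 ± 46.8 CPM in BMAd-DTA (SD, n = 7), a 1.74-fold difference (95% interval 1.36 to 2.22) or 0.80 ± 0.16 on the log2 scale (SE). The exact two-sided permutation test over all 330 assignments of the mice gave p = 0.00303, the smallest it can give. In edgeR's quasi-likelihood test *Sost* was ranked 72 of 16496 genes and had an adjusted p of 0.0675 over all genes.

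*Dkk1*, at chr19:30545863-30549665 on the minus strand, encodes a Dickkopf protein that also engages Kremen co-receptors. It measured 9.48, 9.60, 16.7 and 10.9 CPM in the Control mice, and ranged from 15.4 through a median of 20.7 to 31.4 CPM in the BMAd-DTA mice. The groups overlapped in 1 mouse each, since BMAd-DTA replicate 1, the lowest, fell below Control replicate 3, the highest, and 6 of 7 BMAd-DTA mice were above all Control mice. The difference was 1.91-fold (95% interval 1.37 to 2.65), or 0.93 ± 0.22 on the log2 scale, with an exact permutation p of 0.00909 and an edgeR adjusted p of 0.0744. *Dkk2*, at chr3:132085292-132180304 on the plus strand, had only 7 to 47 counts per library. It measured 1.60, 1.35, 0.414 and 0.881 CPM in Control and from 0.530 to 2.70 CPM in BMAd-DTA, so that the groups overlapped widely. Its log2 difference of 0.23 ± 0.45 had a 95% interval of -0.74 to 1.19, an interval that holds both 0 and the difference fitted for *Sost*. Its coefficient of variation was 49.4% in Control and 58.0% in BMAd-DTA, the highest of the 10 genes in both groups.

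*Dkk3*, at chr7:112116017-112159057 on the minus strand, is the divergent member of the Dickkopf family and is not a typical LRP5/6 antagonist. It was the steadiest of the 10 genes, with a highest value over the 11 mice only 1.61 times the lowest. Its values were 19.5, 16.3, 20.1 and 20.3 CPM in Control and from 18.1 through a median of 21.7 to 26.2 CPM in BMAd-DTA, and 5 of 7 BMAd-DTA mice were above all Control mice. The log2 difference was 0.20 ± 0.11 (95% interval -0.043 to 0.44, edgeR adjusted p = 0.401, exact permutation p = 0.127).

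**Figure D1:**
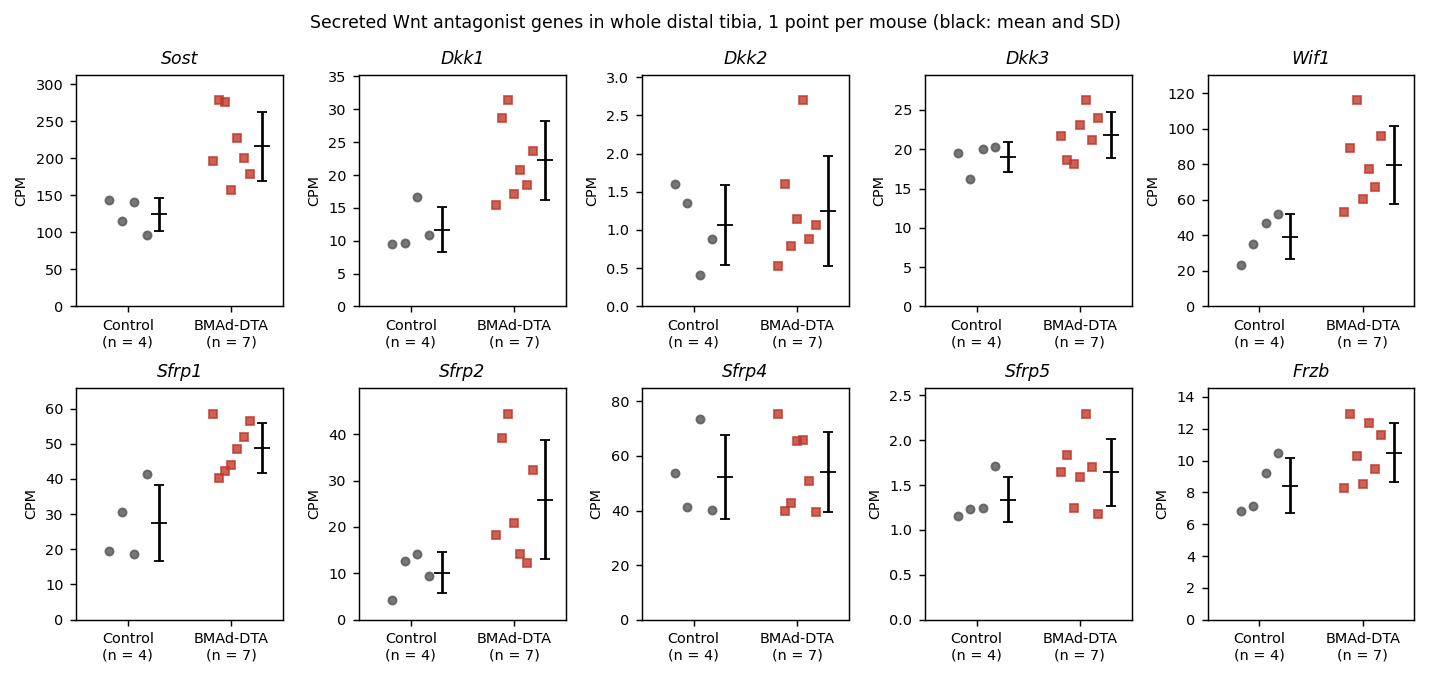
CPM of each of the 10 genes (vertical axis, from 0, own scale per panel) in each Control (grey circles, n = 4) and BMAd-DTA mouse (red squares, n = 7), with the mean and SD in black. Every BMAd-DTA mouse lies above every Control mouse for *Sost* and *Wif1*, whereas the points overlap for the other 8 genes.

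Among the Wnt-binding antagonists, *Wif1*, *Sfrp1* and *Sfrp2* were higher in BMAd-DTA bones, and *Sfrp4*, *Sfrp5* and *Frzb* showed small differences with intervals that included 0. *Wif1*, at chr10:121033960-121100650 on the plus strand, encodes Wnt inhibitory factor 1 and measured 23.4, 35.2, 46.7 and 51.9 CPM in Control. In BMAd-DTA it ranged from 53.1 through a median of 77.4 to 116 CPM. As for *Sost*, every BMAd-DTA mouse was above every Control mouse, although the closest pair (51.9 and 53.1 CPM) nearly met. The difference was 2.03-fold (95% interval 1.42 to 2.90), or 1.02 ± 0.24 on the log2 scale, with an exact permutation p of 0.00303 and an edgeR adjusted p of 0.0726. With library totals alone, without TMM factors, Control replicate 4 was above BMAd-DTA replicate 1, so that the groups of *Wif1* overlapped. The exact permutation p was then 0.00909.

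*Sfrp1*, at chr8:23411502-23449632 on the plus strand, encodes a Frizzled-related protein that is known to restrain bone formation in mice. It measured 19.5, 30.5, 18.6 and 41.5 CPM in Control and from 40.4 through a median of 48.5 to 58.6 CPM in BMAd-DTA. Control replicate 4 was the only Control mouse that reached the BMAd-DTA range, and 6 of 7 BMAd-DTA mice were above it. The log2 difference was 0.83 ± 0.20 (1.77-fold, 95% interval 1.31 to 2.39, exact permutation p = 0.00606, edgeR adjusted p = 0.0799).

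*Sfrp2*, at chr3:83766321-83774316 on the plus strand, encodes a close relative of SFRP1 and had the largest fitted difference of the 10 genes and the largest ratio of highest to lowest mouse. It measured 4.24, 12.6, 14.2 and 9.44 CPM in Control and from 12.2 through a median of 20.9 to 44.4 CPM in BMAd-DTA. The highest value was 10.5 times the lowest over the 11 mice, the groups overlapped, and 5 of 7 BMAd-DTA mice were above all Control mice. The log2 difference was 1.36 ± 0.40 (2.56-fold, 95% interval 1.40 to 4.68, edgeR adjusted p = 0.120), and the exact permutation p of 0.0242 became 0.075 without Control replicate 1 and 0.05 without Control replicate 4. The study singled out *Sfrp2* from these same libraries, so that its difference here is not independent evidence. An antisense gene overlaps *Sfrp2*, and counting without strand left 3101 counts over all libraries against 3929 on its own strand.

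*Sfrp4*, at chr13:19623104-19632994 on the plus strand, encodes a Frizzled-related protein whose loss thins cortical bone in humans and mice. It was abundant and did not separate the groups, with 53.7, 41.4, 73.6 and 40.3 CPM in Control and from 39.5 through a median of 51.0 to 75.5 CPM in BMAd-DTA. Its log2 difference was 0.055 ± 0.21 (95% interval -0.40 to 0.51, edgeR adjusted p = 0.931), an interval that leaves out the differences fitted for *Sost*, *Dkk1*, *Wif1*, *Sfrp1* and *Sfrp2*. The differences between members were not tested. *Sfrp5*, at chr19:42197971-42202252 on the minus strand, encodes a Frizzled-related protein known from adipose tissue and had 21 to 40 counts per library. It measured 1.16, 1.24, 1.24 and 1.71 CPM in Control and from 1.17 to 2.30 CPM in BMAd-DTA, with a log2 difference of 0.29 ± 0.24 (95% interval -0.23 to 0.81, edgeR adjusted p = 0.598). *Frzb*, at chr2:80411970-80447625 on the minus strand, encodes the Frizzled-related protein of articular cartilage. It measured 6.83, 7.13, 9.22 and 10.5 CPM in Control and from 8.25 through a median of 10.3 to 13.0 CPM in BMAd-DTA, with a log2 difference of 0.32 ± 0.16 (95% interval -0.037 to 0.67, edgeR adjusted p = 0.354). Its exact permutation p of 0.0939 became 0.0417 without Control replicate 4, the highest of the Control mice.

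As a group, 10 of 10 genes were fitted higher in BMAd-DTA, against 8307 of all 16496 genes tested. The median log2 difference of the 10 was 0.56, beside 0.0018 over all genes tested. None passed an edgeR adjusted p of 0.05, a threshold that 13 genes, or 0.0788% of those tested, passed. At an unadjusted edgeR p under 0.05, 5 of the 10 (*Sost*, *Dkk1*, *Wif1*, *Sfrp1* and *Sfrp2*) were higher and 0 were lower, against 7.89% of all genes higher and 8.53% lower. DESeq2 called the same 5 genes at an adjusted p under 0.05, with values from 0.000282 (*Sost*) to 0.0463 (*Sfrp2*), where 5.42% of the genes it tested were called. limma-voom with sample quality weights called 3 (*Sost*, *Wif1* and *Sfrp1*), where 1.44% of genes were called. In 2 of the 10 (*Sost* and *Wif1*) the groups did not overlap, against 2.81% of all genes, although those of *Wif1* did with library totals alone. Each of the 10 permutation tests is unadjusted.

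**Figure D2:**
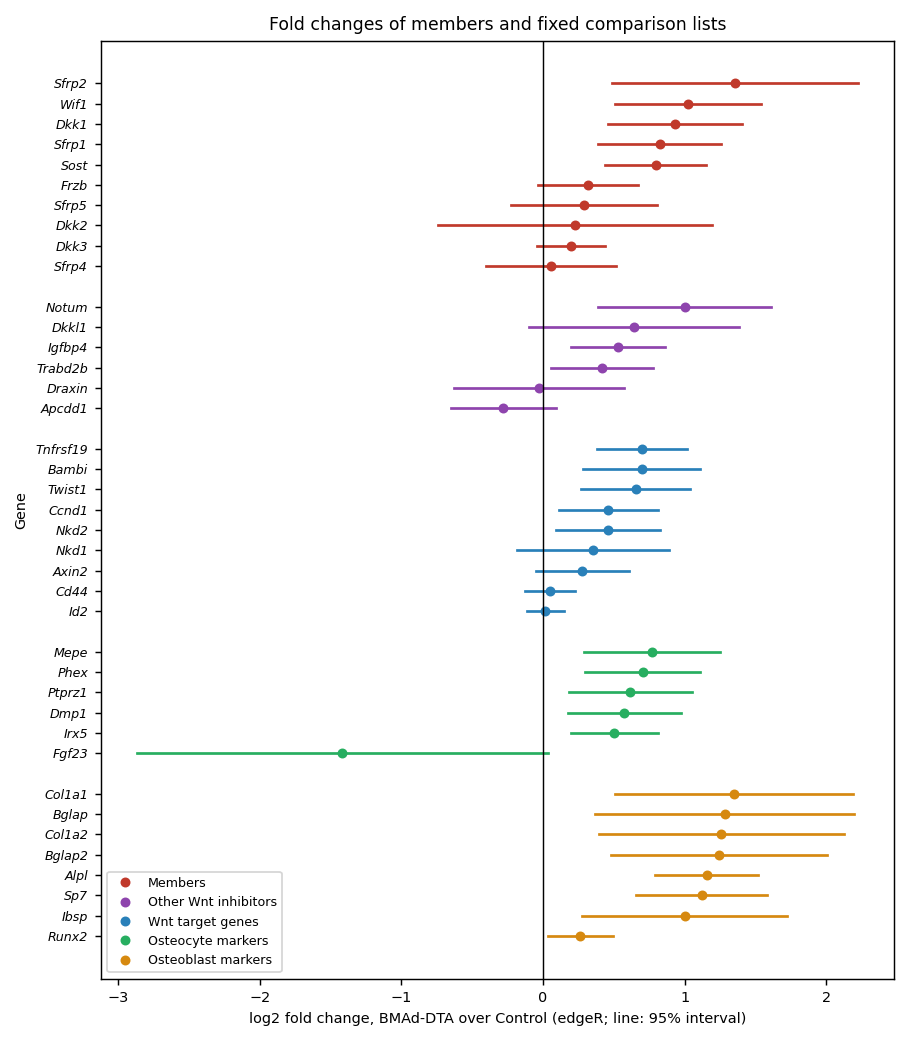
Log2 fold change of BMAd-DTA over Control (horizontal axis) with its 95% interval (line) from edgeR, for the 10 Wnt antagonists (red), other Wnt inhibitors (purple), Wnt target genes (blue), osteocyte markers (green) and osteoblast markers (orange). The intervals of *Sfrp2*, *Wif1*, *Dkk1*, *Sfrp1* and *Sost* lie above 0, as do those of 8 of 8 osteoblast markers and 5 of 6 osteocyte markers.

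The edgeR calls depended on single mice. Without Control replicate 3, 292 genes passed over the whole table, and *Sost* (adjusted p = 0.0458) and *Dkk1* (adjusted p = 0.0390) were among them. Without Control replicate 4, 89 genes passed, and *Sfrp1* (adjusted p = 0.0487) was the only member. No gene passed when 1 of Control replicates 1 and 2 or of BMAd-DTA replicates 1 and 6 was omitted. The fitted differences moved less. With each mouse left out in turn, the log2 difference stayed between 0.69 and 0.87 for *Sost*, between 0.83 and 1.16 for *Dkk1*, between 0.84 and 1.19 for *Wif1*, between 0.68 and 1.09 for *Sfrp1* and between 1.10 and 1.57 for *Sfrp2*. With Control replicates 1 and 3 both omitted, which had the lowest osteoblast marker sum and the highest muscle marker sum, the adjusted p of these 5 genes ranged from 0.196 to 0.351, and the log2 difference of *Sfrp1* fell to 0.44, while those of the other 4 were 1.02 (*Sost*), 1.12 (*Dkk1*), 0.88 (*Wif1*) and 1.24 (*Sfrp2*). With a skeletal muscle score as covariate, their log2 differences were 0.73 (*Sost*), 0.85 (*Dkk1*), 0.93 (*Wif1*), 0.82 (*Sfrp1*) and 1.24 (*Sfrp2*). Their edgeR adjusted p then ranged from 0.129 (*Sost* and *Wif1*) to 0.218 (*Sfrp2*).

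Because sclerostin is an osteocyte product, *Sost* and *Dkk1* were also expressed relative to osteocyte markers in the same mouse. The osteocyte markers were *Dmp1*, *Mepe* and *Phex*, which take part in matrix mineralization and phosphate handling, *Fgf23*, which encodes a phosphate-regulating hormone, *Irx5* and *Ptprz1*. Relative to the mean log2 CPM of all 6, *Sost* was higher in BMAd-DTA by 0.48 (exact permutation p = 0.0212) and *Dkk1* by 0.61 (exact permutation p = 0.0121). These differences rested on *Fgf23*, which measured 4.96, 0.883, 1.18 and 0.778 CPM in Control and from 0 to 1.29 CPM in BMAd-DTA. Control replicate 1 was the single high mouse for this gene, and BMAd-DTA replicate 5 had 0 counts. The ratio of BMAd-DTA replicate 5 was the highest of all mice for *Sost* (3.44) and for *Dkk1* (-0.011). Without this mouse the *Sost* difference was 0.38, the lowest with 1 mouse left out. For *Dkk1* the lowest was 0.50, without Control replicate 1. Without *Fgf23*, an alternative chosen after its values were seen, the differences were 0.16 for *Sost* (exact permutation p = 0.245) and 0.30 for *Dkk1* (exact permutation p = 0.0818).

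The other osteocyte markers themselves were fitted higher in BMAd-DTA, by 0.57 ± 0.18 for *Dmp1*, 0.77 ± 0.22 for *Mepe*, 0.70 ± 0.19 for *Phex*, 0.50 ± 0.14 for *Irx5* and 0.62 ± 0.20 for *Ptprz1* (log2, SE). None of these had an edgeR adjusted p under 0.05, which 0.0788% of all genes tested had. DESeq2 called 5 of 5 at an adjusted p under 0.05, where 5.42% of the genes it tested were called. It did not call *Fgf23* (DESeq2 adjusted p = 0.218). Relative to *Dmp1* alone, *Sost* was higher by 0.20 (exact permutation p = 0.239) and *Dkk1* by 0.34 (exact permutation p = 0.124). Relative to the 8 osteoblast markers, the direction turned, to -0.38 for *Sost* (exact permutation p = 0.309) and -0.25 for *Dkk1* (exact permutation p = 0.358). Whether *Sost* and *Dkk1* exceeded the other transcripts of their cell lineage thus depended on the markers they were set against.

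The 10 genes differed widely in abundance. Per kilobase of exon, a scale on which genes of different length can be compared, the mean level over the 11 mice was 88.5 CPM for *Sost*, 26.8 CPM for *Wif1*, 12.8 CPM for *Sfrp4*, 9.39 CPM for *Sfrp1* and 9.36 CPM for *Sfrp2*. It was 7.57 CPM per kilobase for *Dkk1*, 6.20 for *Dkk3*, 3.01 for *Frzb*, 0.805 for *Sfrp5* and 0.318 for *Dkk2*. *Sost* was above *Wif1* in 11 of 11 mice, *Wif1* above *Sfrp4* in 10 and *Sfrp4* above *Sfrp1* in 10. In the middle of the order neighbours did not separate, with *Sfrp1* above *Sfrp2* in 7 mice, *Sfrp2* above *Dkk1* in 6 and *Dkk1* above *Dkk3* in 7. *Dkk3*, *Frzb*, *Sfrp5* and *Dkk2* followed each other in this order in 11 of 11 mice. *Sost* made up 52.8% ± 7.62 (SD, n = 4) of the level per kilobase summed over the 10 genes in Control and 53.7% ± 4.06 (SD, n = 7) in BMAd-DTA. The share of *Wif1* was 14.2% ± 4.66 and 16.8% ± 2.82, and that of *Sfrp4* was 10.8% ± 1.98 and 7.02% ± 2.67.

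**Figure D3:**
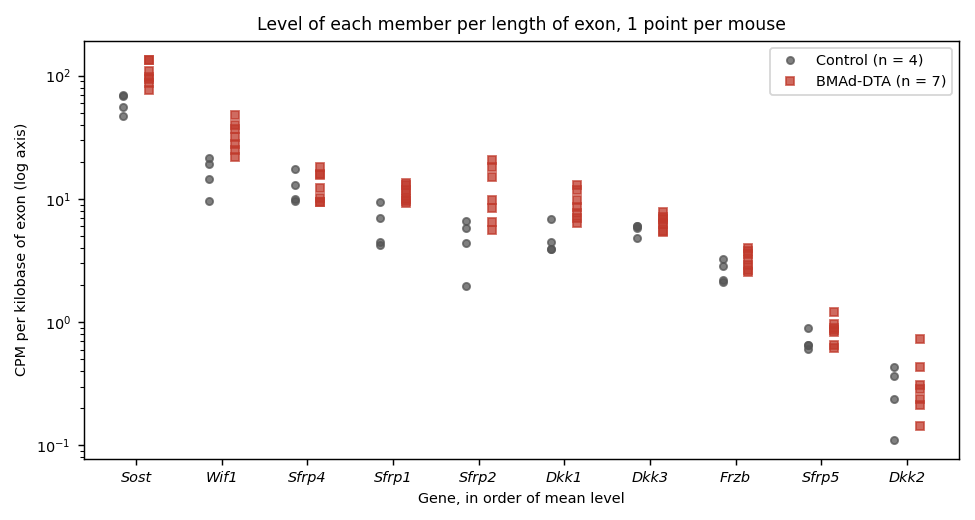
Level of each gene in CPM per kilobase of exon (vertical log axis) in order of the mean over 11 mice, with Control mice as grey circles and BMAd-DTA mice as red squares. *Sost* stands above the other 9 genes in every mouse, and *Sfrp5* and *Dkk2* lie lowest.

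Within the groups the genes did not all follow the same mice. In BMAd-DTA replicates 2, 3 and 7, the 3 mice with the least adipocyte marker RNA (391 to 515 summed CPM, against 883 to 1230 in the other 4), *Dkk1* measured 23.6 to 31.4 CPM against 15.4 to 20.7 CPM in the other 4. In the same 3 mice *Wif1* measured 89.1 to 116 CPM against 53.1 to 77.4 CPM, and *Sfrp2* 32.2 to 44.4 CPM against 12.2 to 20.9 CPM. *Sfrp4* went the other way, at 39.5 to 42.8 CPM in these 3 mice against 51.0 to 75.5 CPM in the other 4. *Sost*, at 179 to 278 CPM against 157 to 227 CPM, and the other 5 genes overlapped between these mice. This ordering was noticed in the data, was not tested, and describes 7 mice of 1 genotype. Among the Control mice, *Dkk1* and *Sfrp2* did not follow it. Both were highest in Control replicate 3 (16.7 and 14.2 CPM), which had the most adipocyte marker RNA (1694 summed CPM). Control replicate 4, with the least (1005 summed CPM), had the highest *Wif1* (51.9 CPM) and the lowest *Sfrp4* (40.3 CPM) of the Control mice.

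**Figure D4:**
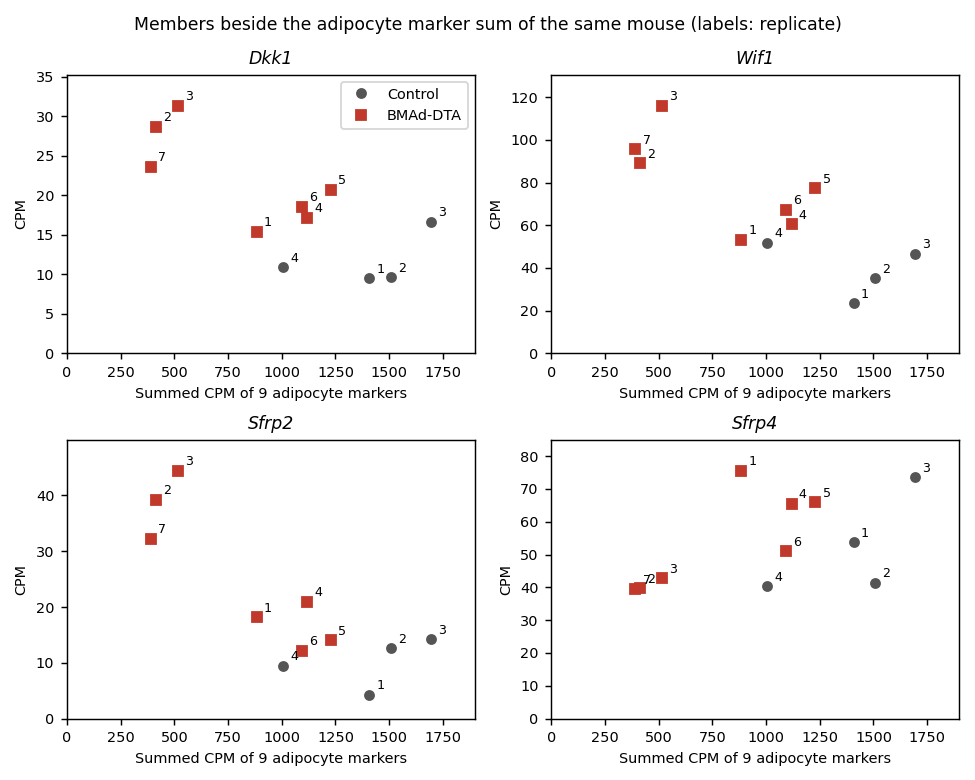
CPM of *Dkk1*, *Wif1*, *Sfrp2* and *Sfrp4* (vertical axes) against the summed CPM of 9 adipocyte markers (horizontal axis) in the same mouse, with Control as grey circles, BMAd-DTA as red squares and replicate numbers beside the points. BMAd-DTA replicates 2, 3 and 7, at 391 to 515 summed CPM, hold the 3 highest values of *Dkk1*, *Wif1* and *Sfrp2* and, among the BMAd-DTA mice, the 3 lowest of *Sfrp4*.

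**Figure D5:**
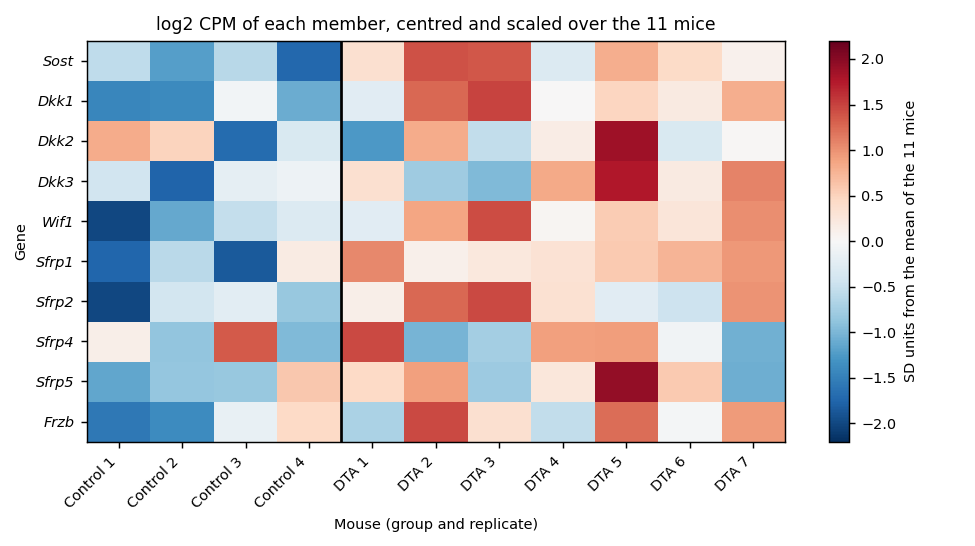
Log2 CPM of the 10 genes (rows) in the 11 mice (columns, Control left of the black line), centred and scaled per gene, in SD units (blue low, red high). *Sost*, *Dkk1*, *Wif1*, *Sfrp1* and *Sfrp2* are mostly blue in the 4 Control mice and mostly red in the 7 BMAd-DTA mice, as are *Dkk3*, *Sfrp5* and, less clearly, *Frzb*. *Dkk2* and *Sfrp4* are red in 2 of 4 Control mice and in 4 and 3 of 7 BMAd-DTA mice.

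For each gene, the other gene with the most similar profile over the 11 libraries was taken from those averaging 50 counts or more. *Sost* was most like *Ackr3* (Pearson r = 0.929), *Dkk1* like *Frmd6* (0.969), *Wif1* like the collagen gene *Col24a1* (0.951), *Sfrp1* like *Zbed3* (0.946) and *Sfrp2* like *Dgka* (0.971). *Dkk3* was most like the cartilage matrix gene *Chad* (Pearson r = 0.912), *Frzb* like *Sesn3* (0.944), *Sfrp4* like the collagen receptor gene *Ddr1* (0.912), *Sfrp5* like *Mdk* (0.884) and *Dkk2* like *Trmt1l* (0.909). These describe 11 points that share the genotype difference and, in each mouse, the same tissue mixture, and each is the highest of about 12972 values.

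The rest of the Wnt pathway was read from 7 lists with 78 genes, of which 69 were in the table and 63 were tested. Of the 63, 48 were fitted higher and 15 lower in BMAd-DTA, with a median log2 difference of 0.31. None passed an edgeR adjusted p of 0.05, 23 were higher and 1 lower at an unadjusted p under 0.05, and DESeq2 called 12, each of them higher. limma-voom with sample quality weights called 4. Over all genes tested, 8307 of 16496 were fitted higher. The shares over all genes were 7.89% higher and 8.53% lower at the unadjusted threshold, 5.42% called by DESeq2 and 1.44% by limma-voom.

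Of 10 Wnt ligands tested, 3 were higher at an unadjusted p under 0.05, and fitted differences ran from -0.45 ± 0.63 for *Wnt6* to 0.71 ± 0.24 for *Wnt5b* (log2, SE). Among the 10 Frizzled receptors, which bind the ligands, 3 were higher and 1 was lower at that threshold, from -0.44 ± 0.17 for *Fzd2* to 0.53 ± 0.16 for *Fzd9*. The groups did not overlap for *Fzd2*, with BMAd-DTA lower, or for *Fzd9*, with BMAd-DTA higher. Of the 63 other Wnt pathway genes tested, 7 had no overlap, against 2.81% of all genes tested. The rest of the 7 were *Lrp5*, *Lgr4*, *Notum*, *Ctnnb1* and *Tnfrsf19*, each higher in BMAd-DTA. Of 13 co-receptors and receptors, 5 were higher at the unadjusted threshold, with *Lrp4*, which encodes a sclerostin-binding receptor in bone, at 0.54 ± 0.19 and *Lgr5*, an R-spondin receptor gene, at -0.022 ± 0.30. Among 3 R-spondins, which amplify Wnt signals, 1 was higher, from -0.82 ± 0.45 for *Rspo1* to 0.48 ± 0.38 for *Rspo2*.

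Of 6 other secreted or membrane Wnt inhibitors, 3 were higher at an unadjusted p under 0.05 and 0 were lower. *Notum*, which encodes an extracellular enzyme that removes the lipid of Wnt ligands, measured 1.65, 1.47, 2.19 and 1.56 CPM in Control and from 2.51 to 5.90 CPM in BMAd-DTA. The groups of *Notum* did not overlap, and its log2 difference was 1.0 ± 0.28, with an edgeR adjusted p of 0.111. *Apcdd1*, a membrane inhibitor gene, was fitted at -0.28 ± 0.17. Of 12 genes that act inside the cell, 3 were higher, from -0.12 ± 0.076 for *Gsk3b* to 0.65 ± 0.20 for the transcription factor gene *Tcf7*. Of 9 Wnt target genes, 9 were fitted higher and 5 were so at an unadjusted p under 0.05, with *Tnfrsf19* at 0.70 ± 0.15 and *Id2* at 0.018 ± 0.061. The part of the higher osteoblast marker RNA in these differences was not tested.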

How the data were processed

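RNA was extracted from whole distal tibiae and strand-specific paired-end libraries were sequenced. The authors deposited raw counts per gene, as 1 merged table and 1 file per library. FastQC 0.11.9, STAR, DESeq2 and the build mm10 are named in the submitters' processing notes. Members and comparison lists were chosen with earlier results of these data known. Several comparison genes, among them *Alpl*, *Bglap*, *Col2a1*, *Mepe*, *Phex*, *Dmp1*, *Lrp4* and *Wnt5a*, were named as raised by the study from these same libraries.

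From the deposited counts, genes were filtered with filterByExpr, scaled by TMM and tested by genotype with edgeR 4.0.16 (quasi-likelihood, two-sided, Benjamini-Hochberg over 16496 genes, threshold 0.05) in R 4.3.3. Intervals are 95%. Single genes were also compared by exact permutation of mean log2 CPM (prior count 2). Alternatives were DESeq2 1.42.0, voom in limma 3.58.1 with quality weights, other scalings, filters and strand counting, a muscle covariate, and each mouse left out. The test code was checked on simulated data. Exon lengths came from GENCODE M21, whose release may differ from the authors'. Named genes were all members, the largest and smallest difference of each list and any called, and the osteocyte markers. P-values set the difference between groups against the spread between mice. Gene IDs that the merged table does not list held 1.46% of the per-library counts.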

Additional observations from a re-analysis of the deposited data

Results flagged for a closer look

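In 60 checks of the highest and lowest mouse of a group, 4 values stood far from the rest of their group by Dixon's criterion, and chance flags about 1 in 20 such groups. *Sfrp5* in Control replicate 4 measured 1.71 CPM, against 1.16 to 1.24 CPM in the other Control mice. The summed CPM of Wnt co-receptors and receptors in BMAd-DTA replicate 3 was 602.7, against 451 to 494 in the other BMAd-DTA mice. The summed CPM of osteoblast markers in Control replicate 1 was 2741, against 11178 to 12769 in the other Control mice, and this mouse also had the lowest *Wif1* and *Sfrp2* of the 11. By group mean, most of the osteoblast sum was *Col1a1* and *Col1a2*. The summed CPM of fibroblast and periosteum markers in BMAd-DTA replicate 3 was 1595, against 1094 to 1291 in the other BMAd-DTA mice, and this mouse also had the highest *Dkk1*, *Wif1* and *Sfrp2*.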

How the results depend on the processing

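Over all genes, 13 were called as reported (12 higher, 1 lower), 845 by DESeq2 (433 higher, 412 lower), 238 by limma-voom with quality weights, 20 with RLE scaling (15 higher, 5 lower), 3 with the muscle covariate and 0 with Control replicates 1 and 3 both omitted. With single mice left out, 0 to 292 genes, 0 to 2 members and 0 to 2 other Wnt pathway genes were called. DESeq2 called 5 members and 12 other Wnt genes, and limma-voom 3 and 4. The fitted log2 difference of *Dkk2* was -0.00074 with the muscle covariate and ranged from -0.080 (without BMAd-DTA replicate 5) to 0.49 (without Control replicate 1) with single mice left out, and that of *Sfrp4* from -0.051 (without Control replicate 4) to 0.27 (without Control replicate 3). The permutation differences ranged from -0.14 to 0.42 for *Dkk2*, from 0.96 to 1.53 for *Sfrp2*, from -0.054 to 0.24 for *Sfrp4* and from 0.23 to 0.43 for *Frzb*. *Sost* relative to osteocyte markers ranged from 0.38 to 0.54, with p = 0.05 in the exact permutation test without Control replicate 2, 3 or 4. With other reference genes it was 0.20 (*Dmp1* alone), 0.16 (without *Fgf23*) and -0.38 (osteoblast markers), and *Dkk1* was 0.34, 0.30 and -0.25. With mean or longest transcript lengths, 8 of the 10 genes kept their place in the order of levels, and *Sfrp1* and *Sfrp2* exchanged theirs. The cause of these changes was not tested. *Dkk2* and *Sfrp5* had at most 47 counts per library, and whether depth limited them was not tested. No paired analysis was possible because the replicate numbers were given in accession order and tie no Control mouse to a BMAd-DTA mouse.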

Other observations

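The BMAd-DTA mice with the least adipocyte marker RNA (replicates 2, 3 and 7), which also held the most *Dkk1*, *Wif1* and *Sfrp2*, differed from the other 4 in further cell contents. Their summed endothelial markers were 438 to 483 CPM against 604 to 622 CPM, and their summed marrow stroma markers 3137 to 3624 CPM against 4820 to 5137 CPM. Most of the stroma sum was 1 gene, *Cxcl12*. Control replicate 1, with 1407 summed CPM of adipocyte markers, also had a low stroma sum, of 3176 CPM. These values were noticed after the data were seen and were not tested.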
